A study of Mus musculus with 13 samples.

Results

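Smooth muscle and pericyte genes were followed as a set of 10 members of the 43629 genes counted: Cnn1, Tagln, Myh11, Lmod1, Smtn, Kcnmb1, Rgs5, Pdgfrb, Cspg4 and Notch3. They were picked by name with values of these same libraries already known, and which comparison prompted the choice is not recorded. Their levels and fold changes are therefore given as a description of the members, and the counts of members that moved support nothing about smooth muscle genes in general. The cells were mouse embryonic fibroblasts (MEFs), connective tissue cells grown from embryos and labelled E12.5, kept in DMEM with 10% FBS. Total RNA was sequenced from 1 library each of IMP1 KO, IMP1 WT, IMP2 KO and IMP2 WT cells, in which IMP1 (gene Igf2bp1) or IMP2 (gene Igf2bp2), a pair of related RNA-binding proteins, had been deleted or not. In RNA immunoprecipitation (IP) an antibody recovers a protein together with the RNA bound to it, and 3 libraries each were made with antibodies to IMP1 and to IMP2 and with the control immunoglobulin IgG. Neither the genotype of the cells used in the IPs nor further detail of the alleles is in the labels, which do not state either that replicates were separate cultures, so the p-values below measure only the spread between these libraries.

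Smooth muscle cells contract when myosin pulls on actin filaments, and their contractile genes are switched on together by serum response factor with its myocardin-family partners. Pericytes wrap small vessels, and they are recruited by platelet-derived growth factor (PDGF) and kept in place by Notch signals from the endothelium. Cultured fibroblasts can carry smooth muscle genes as well, a state known as the myofibroblast, so these genes in a MEF culture do not by themselves name a cell type.

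Levels are in CPM, a library's counts set to a common total after TMM scaling, within the 4 total RNA libraries and within the 9 IP libraries, and CPM does not allow for transcript length, so levels are compared within a gene and not between genes. Libraries held 11430002 to 21756430 gene counts, and 3 counts, the limit that a count of 0 allows, came to 0.1379 to 0.2625 CPM. Igf2bp1 was at 3.21 CPM in IMP1 KO against 32.28 CPM in IMP1 WT cells, 10-fold lower, and Igf2bp2 was at 28.2 CPM in IMP2 KO against 149 CPM in IMP2 WT cells, 5.29-fold lower. Of 12 fibroblast markers, 9 to 11 reached 10 CPM in each of the 7 groups, and their summed level was 19636 to 61955 CPM across the 13 libraries. The IgG IP libraries differed in make-up, with 24.2% to 25.2% of records outside annotated genes, against 4.43% to 7.67% in all other libraries.

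**Figure D1:**
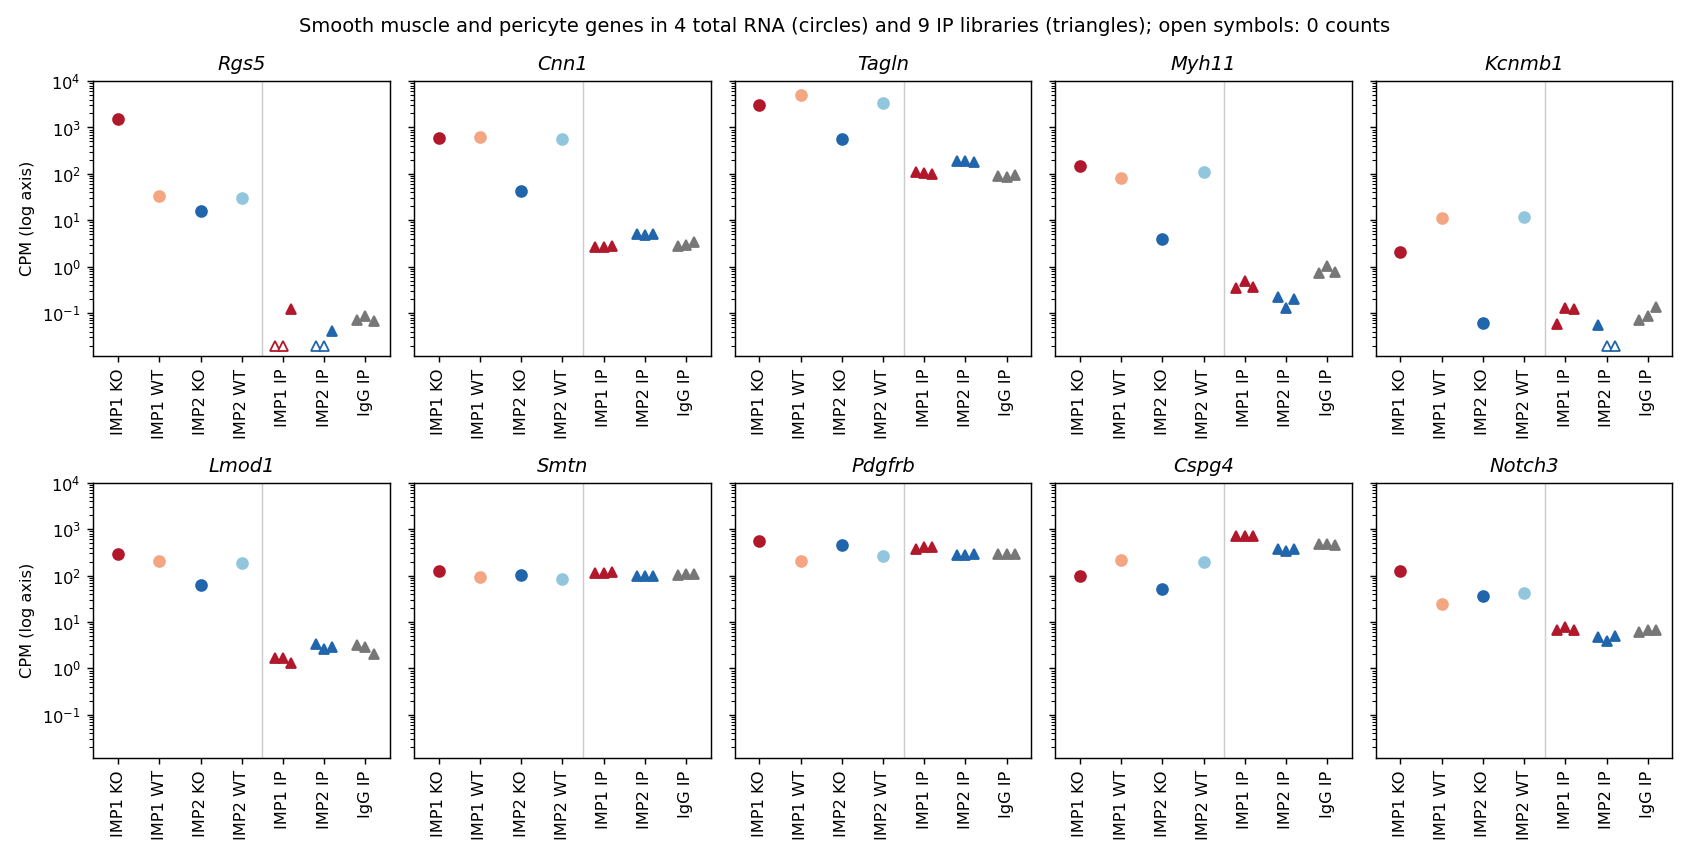
CPM of each member in every library on a log axis, with the 4 total RNA libraries as circles at the left of each panel and the 9 IP libraries as triangles at the right. Rgs5 stands at 1513 CPM in IMP1 KO cells, the contractile genes other than Smtn are low in IMP2 KO cells, and in the IP libraries Rgs5, Cnn1, Myh11, Kcnmb1 and Lmod1 are at 5.09 CPM or less. Open symbols mark libraries with 0 counts and are drawn at the bottom of the panel.

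In total RNA, IMP2 KO cells had less RNA of most contractile members than IMP2 WT cells, and IMP1 KO cells had far more Rgs5 and more Notch3 and Pdgfrb than IMP1 WT cells. At least 2-fold differences in IMP1 KO cells were seen for 3 members on the higher side, where 5.27% of the 9785 genes with at least 10 CPM in 1 of the pair of libraries were higher, and for 2 on the lower side, where 6.36% were lower. In IMP2 KO cells 0 members were higher and 6 were lower by at least 2-fold, against 7.63% and 7.54% of 9956 genes. The members' median log2 ratio was 0.48 in IMP1 KO cells (all genes -0.03) and -1.75 in IMP2 KO cells (all genes -0.02). With 1 library per genotype there is no test, the 95% intervals given with the ratios cover counting error only, and a smaller number of smooth-muscle-like cells cannot be told apart from less RNA per cell. All 10 members reached 10 CPM in at least 1 library of each pair, but Kcnmb1 did so through the WT library alone in both pairs and Myh11 through the WT library alone in the IMP2 pair. Without them 1 member was lower in IMP1 KO cells and 4 were lower in IMP2 KO cells. The medians above still include these values, whose direction was fixed in this way. The WT libraries differed little: 0 of the 10 members differed at least 2-fold between IMP1 WT and IMP2 WT cells, where 0.409% of genes were higher and 0.168% lower. The widest gaps between them were 24.07 CPM in IMP1 WT and 42.4 CPM in IMP2 WT cells for Notch3, 1.76-fold lower (1.55 to 2.01), and 5027 CPM in IMP1 WT and 3404 CPM in IMP2 WT cells for Tagln, 1.48-fold higher (1.46 to 1.49).

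The contractile members come first. Cnn1 (ENSMUSG00000001349; GRCm38.p6, chromosome 9, 22099221 to 22109221) encodes calponin, an actin-binding protein that restrains the myosin ATPase. It was at 602.8 CPM in IMP1 KO against 629.8 CPM in IMP1 WT cells, and at 43.55 CPM in IMP2 KO against 560.3 CPM in IMP2 WT cells. The IMP1 KO library thus lay close to both WT libraries, while the IMP2 KO library was 12.9-fold lower than its WT library (11.9 to 13.9). Tagln (ENSMUSG00000032085; chromosome 9, 45929628 to 45936058) encodes transgelin, which binds and bundles actin. It was at 2984 CPM in IMP1 KO against 5027 CPM in IMP1 WT cells, 1.68-fold lower (1.66 to 1.71), and at 560.9 CPM in IMP2 KO against 3404 CPM in IMP2 WT cells, 6.07-fold lower (5.94 to 6.21). Both knockouts lay below both WT libraries. Tagln overlaps Pcsk7 in the annotation, and strand use in counting was not stated.

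Myh11 (ENSMUSG00000018830; chromosome 16, 14194527 to 14292188), the smooth muscle myosin heavy chain, is a marker of mature smooth muscle. It was at 145.1 CPM in IMP1 KO against 80.49 CPM in IMP1 WT cells, 1.8-fold higher (1.67 to 1.94). The IMP2 KO library held 3.97 CPM, from 65 counts, against 110.4 CPM in IMP2 WT cells, from 1862 counts, which was 27.8-fold lower (21.7 to 36.2). Lmod1 (ENSMUSG00000048096; chromosome 1, 135324813 to 135368065) encodes leiomodin, which starts new actin filaments in smooth muscle. It was at 289 CPM in IMP1 KO against 202.7 CPM in IMP1 WT cells, 1.43-fold higher (1.36 to 1.5), and at 62.67 CPM in IMP2 KO against 184 CPM in IMP2 WT cells, 2.94-fold lower (2.74 to 3.15). For Myh11 and Lmod1 the IMP1 KO library was the highest of the 4 and the IMP2 KO library the lowest. Smtn (ENSMUSG00000020439; chromosome 11, 3517522 to 3539292) encodes smoothelin, an actin-associated protein, and overlaps the long non-coding RNA gene Gm11946. It was at 123.7 CPM in IMP1 KO against 91.21 CPM in IMP1 WT cells, 1.36-fold higher (1.26 to 1.46), and at 103.7 CPM in IMP2 KO against 86.23 CPM in IMP2 WT cells, 1.2-fold higher (1.12 to 1.29). Smtn was the contractile member that was not lower in IMP2 KO cells.

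The signalling members that act inside smooth muscle and pericytes are Kcnmb1 and Rgs5. Kcnmb1 (ENSMUSG00000020155; chromosome 11, 33962955 to 33973641) encodes the beta subunit that makes the large-conductance potassium channel of smooth muscle more sensitive to calcium, and it overlaps Kcnip1 in the annotation. It was at 2.113 CPM in IMP1 KO against 10.99 CPM in IMP1 WT cells, from 25 and 162 counts, 5.2-fold lower (3.4 to 8.27). In IMP2 KO cells 1 read was counted, 0.0611 CPM, against 196 counts and 11.62 CPM in IMP2 WT cells, a ratio of 190-fold lower with a counting interval of 33.8 to 7554. Both knockouts were below both WT libraries. Kcnma1, the pore-forming subunit of the same channel, stayed below 10 CPM in all 4 libraries, at 7.101 CPM in IMP1 KO against 0.9494 CPM in IMP1 WT cells and at 0.1832 CPM in IMP2 KO against 2.55 CPM in IMP2 WT cells. Rgs5 (ENSMUSG00000026678; chromosome 1, 169655501 to 169695813) speeds the shut-off of G protein signals and is widely used as a pericyte marker. It was at 1513 CPM in IMP1 KO cells, from 17898 counts, against 33.36 CPM in IMP1 WT cells, from 492 counts, 45.3-fold higher (41.5 to 49.7). Rgs5 was at 15.51 CPM in IMP2 KO against 30.24 CPM in IMP2 WT cells, 1.95-fold lower (1.67 to 2.28), just short of the 2-fold limit. The IMP1 KO library therefore stood alone for Rgs5, with the other 3 between 15.51 and 33.36 CPM. Rgs4, an RGS gene of the pericyte list named after its values were seen, was at 436.1 CPM in IMP1 KO against 30.58 CPM in IMP1 WT cells and at 13.19 CPM in IMP2 KO against 23.37 CPM in IMP2 WT cells. Of 3 genes of the RGS list, which holds neither Rgs5 nor Rgs4, with at least 10 CPM in the IMP1 pair, 0 were higher and 1, Rgs16, was lower by at least 2-fold, at 16.23 CPM in IMP1 KO against 79 CPM in IMP1 WT cells. Rgs16 was also the 1 of 3 lower in the IMP2 pair, at 2.932 CPM in IMP2 KO against 52.13 CPM in IMP2 WT cells. There it reached 10 CPM through the WT library alone, so it had to be lower in IMP2 KO cells.

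The promoter windows of Cnn1, Lmod1, Kcnmb1 and Rgs5 are printed because the contractile members Cnn1 and Lmod1 were low together with Kcnmb1 in IMP2 KO cells, while Rgs5 was high in IMP1 KO cells. RefSeq windows (GRCm38.p6, 250 bases before to 50 after the start set for each window, 5′ to 3′) were used for 7 of the 10 members. Windows of Tagln, Myh11 and Pdgfrb were not used. For Cnn1 and Kcnmb1 the start set for the window lies downstream of the gene start given above. The 4 printed are on the plus strand and lie at chr9:22099003-22099302 for Cnn1, chr1:135324563-135324862 for Lmod1, chr11:33962763-33963062 for Kcnmb1 and chr1:169655251-169655550 for Rgs5. Capitals mark CAGCTG, an E-box letter order that reads the same on both strands.
Cnn1: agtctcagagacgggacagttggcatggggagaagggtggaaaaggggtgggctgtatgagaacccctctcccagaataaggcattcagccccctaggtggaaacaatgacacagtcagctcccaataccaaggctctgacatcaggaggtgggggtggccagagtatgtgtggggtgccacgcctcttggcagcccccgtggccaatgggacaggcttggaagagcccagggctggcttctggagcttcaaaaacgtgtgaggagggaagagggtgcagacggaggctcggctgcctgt
Lmod1: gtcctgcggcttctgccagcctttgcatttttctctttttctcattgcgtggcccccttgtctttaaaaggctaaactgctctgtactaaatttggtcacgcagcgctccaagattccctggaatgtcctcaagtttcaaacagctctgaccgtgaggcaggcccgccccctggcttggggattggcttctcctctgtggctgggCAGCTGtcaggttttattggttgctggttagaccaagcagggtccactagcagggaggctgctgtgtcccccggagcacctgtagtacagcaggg
Kcnmb1: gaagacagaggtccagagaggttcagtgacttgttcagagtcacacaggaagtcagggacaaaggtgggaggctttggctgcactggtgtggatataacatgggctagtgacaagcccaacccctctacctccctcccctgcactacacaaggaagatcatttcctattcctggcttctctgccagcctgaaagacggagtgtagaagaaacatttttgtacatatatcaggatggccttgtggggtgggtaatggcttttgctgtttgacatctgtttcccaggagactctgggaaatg
Rgs5: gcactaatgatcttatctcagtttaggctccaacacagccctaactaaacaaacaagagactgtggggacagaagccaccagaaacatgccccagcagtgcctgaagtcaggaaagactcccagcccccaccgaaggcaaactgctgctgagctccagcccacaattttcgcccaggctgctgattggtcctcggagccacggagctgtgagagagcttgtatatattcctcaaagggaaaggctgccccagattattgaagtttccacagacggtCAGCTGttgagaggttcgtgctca
The CArG box, the site bound by serum response factor, was searched by its consensus on both strands and was found in 0 of the 7 windows, against 535 of all 32851 windows (1.63%). CAGCTG was found in Lmod1, at -45 from the gene's first base, and in Rgs5, at 26, and is held by 16.3% of all windows. TATAAA, searched on both strands, was in 0 of the 7 windows and in 13.6% of all windows. These counts describe the letters of these windows, and sites elsewhere in the genes were not looked for. Since Tagln, Myh11 and Pdgfrb were not searched, the counts say nothing about their promoters.

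The receptors and surface proteins of pericytes are the last group. Pdgfrb (ENSMUSG00000024620), the receptor for PDGF-B and the classical pericyte marker, was at 552.9 CPM in IMP1 KO against 208.7 CPM in IMP1 WT cells, 2.65-fold higher (2.54 to 2.77). It was at 458.9 CPM in IMP2 KO against 259.6 CPM in IMP2 WT cells, 1.77-fold higher (1.7 to 1.84), so both knockouts lay above both WT libraries. Notch3 (ENSMUSG00000038146; GRCm38.p6, chromosome 17, 32120820 to 32166896), the Notch receptor of mural cells, was at 124 CPM in IMP1 KO against 24.07 CPM in IMP1 WT cells, 5.15-fold higher (4.58 to 5.8). It was at 36.77 CPM in IMP2 KO against 42.4 CPM in IMP2 WT cells, 1.15-fold lower (1.03 to 1.29), a value between the WT libraries. Notch3 overlaps the long non-coding RNA genes Gm38585 and Gm41568. Cspg4 (ENSMUSG00000032911; chromosome 9, 56865104 to 56899870) encodes the NG2 proteoglycan of pericytes and other progenitor cells. It was at 98.23 CPM in IMP1 KO against 216.3 CPM in IMP1 WT cells, 2.2-fold lower (2.06 to 2.36), and at 50.33 CPM in IMP2 KO against 195.4 CPM in IMP2 WT cells, 3.88-fold lower (3.6 to 4.2). Cspg4 was thus low in both knockouts, in which Pdgfrb was high.

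**Figure D2:**
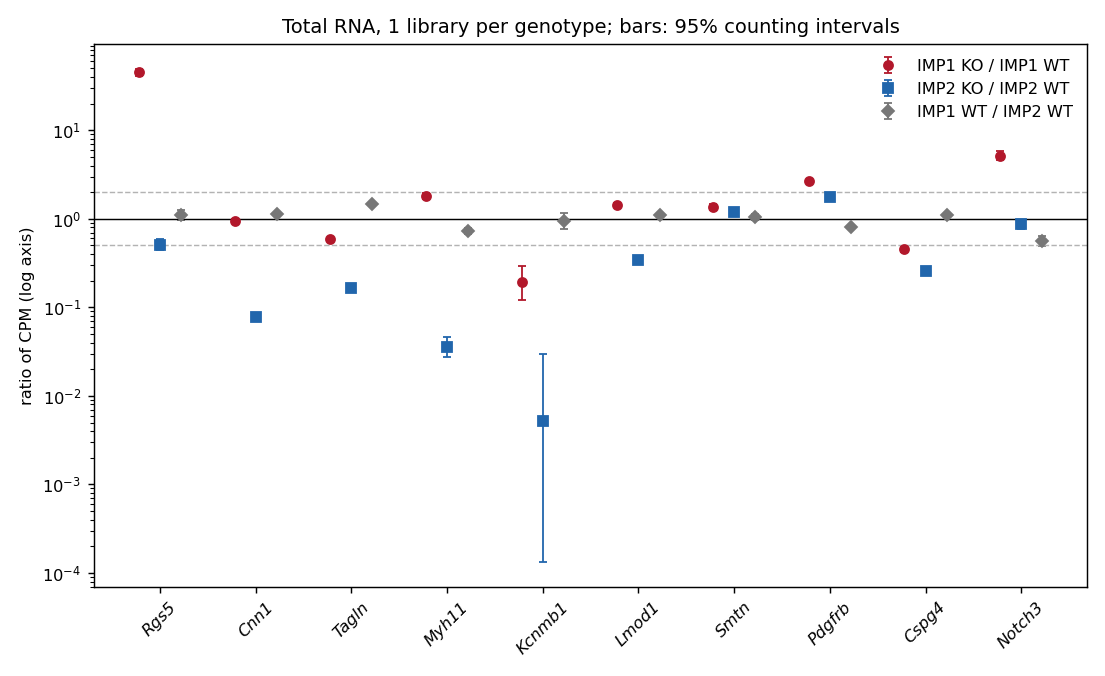
Ratio of CPM in total RNA on a log axis for each member, as IMP1 KO over IMP1 WT, IMP2 KO over IMP2 WT and IMP1 WT over IMP2 WT, with 1 library per genotype and bars for 95% counting intervals. Dashed lines mark 2-fold differences, and the widest bar is that of Kcnmb1 in IMP2 KO cells, which rests on 1 count. Rgs5 is 45.3-fold higher in IMP1 KO cells, and Cnn1, Tagln, Myh11, Kcnmb1, Lmod1 and Cspg4 are lower in IMP2 KO cells.

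These ratios rest on the WT library chosen. With the other WT library as the comparison, an alternative added after the data were seen, 4 members were past 2-fold in IMP1 KO cells, 3 higher (4.64% of all genes in that pairing) and 1 lower (6.34%), because Cspg4 came to -0.99 on the log2 scale. Notch3 came to 1.545 in IMP1 KO cells in place of 2.36. For IMP2 KO cells 8 were past 2-fold, 1 higher (9.87% of all genes) and 7 lower (9.43%), with Pdgfrb at 1.14, and Notch3 came to 0.61 in place of -0.20. The 1 member lower in IMP1 KO cells was Kcnmb1, which reached 10 CPM through the IMP2 WT library alone. Kcnmb1 and Myh11, among the 7 lower in IMP2 KO cells, did so through the IMP1 WT library alone. Their direction was thus fixed by the level limit, and they are counted.

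Genes of the same pathways, from lists that were also chosen with earlier results of these data known, are given for comparison. Of all genes, 5.27% were higher and 6.36% lower in the IMP1 pair, and 7.63% and 7.54% in the IMP2 pair. A gene with 10 CPM in only 1 library of a pair had to be higher in that library, and such genes are counted. In the IMP1 pair these were, among the genes named in this paragraph and the next, Des, Kcnj8, Angpt1 and Hey2. In the IMP2 pair they were Des, Actg2, Tbx18 and Cacna1c. Of 23 contractile genes with at least 10 CPM in the IMP1 pair, 4 were higher and 2 lower by at least 2-fold in IMP1 KO cells (median log2 ratio -0.01). The myosin phosphatase subunit Ppp1r12b was highest, at 218.4 CPM in IMP1 KO against 37.36 CPM in IMP1 WT cells, and the intermediate filament gene Des was lowest, at 1.775 CPM in IMP1 KO against 22.78 CPM in IMP1 WT cells. Of 22 in the IMP2 pair, 0 were higher and 11 lower in IMP2 KO cells (median -0.99). Smooth muscle gamma-actin, Actg2, was at 7.696 CPM in IMP2 KO against 343.2 CPM in IMP2 WT cells, and Des at 0.4887 CPM in IMP2 KO against 20.76 CPM in IMP2 WT cells. Smooth muscle alpha-actin, Acta2, was at 8141 CPM in IMP1 KO against 8384 CPM in IMP1 WT cells, and at 734.8 CPM in IMP2 KO against 6207 CPM in IMP2 WT cells, 8.45-fold lower. Srf, the gene of serum response factor, was at 95.86 CPM in IMP1 KO against 121.7 CPM in IMP1 WT cells and at 75.56 CPM in IMP2 KO against 92.22 CPM in IMP2 WT cells, so it was within 2-fold in both. Among 9 regulators of contractile genes measured in each pair, 1 was higher and 0 lower in IMP1 KO cells, and 2 were higher and 2 lower in IMP2 KO cells. The homeobox factor Prrx1 was past 2-fold in both, at 1090 CPM in IMP1 KO against 488.6 CPM in IMP1 WT cells and at 164 CPM in IMP2 KO against 581 CPM in IMP2 WT cells.

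Pericyte genes other than the members differed in both directions. Of 9 measured in the IMP1 pair, 4 were higher and 2 lower in IMP1 KO cells. Aoc3, a surface amine oxidase, was at 206.3 CPM in IMP1 KO against 10.1 CPM in IMP1 WT cells, and Kcnj8, a potassium channel subunit, at 14.96 CPM in IMP1 KO against 0.7459 CPM in IMP1 WT cells, while Angpt1, a ligand of the endothelial receptor Tie2, was at 0.4227 CPM in IMP1 KO against 10.65 CPM in IMP1 WT cells. Of 11 measured in the IMP2 pair, 5 were higher and 3 lower in IMP2 KO cells. Aoc3 was at 132.7 CPM in IMP2 KO against 20.04 CPM in IMP2 WT cells, whereas the adhesion molecule Mcam was at 15.76 CPM in IMP2 KO against 283.5 CPM in IMP2 WT cells and the transcription factor Tbx18 at 2.81 CPM in IMP2 KO against 48.1 CPM in IMP2 WT cells. In the Notch list 2 of 11 were higher and 0 lower in IMP1 KO cells. They were the ligand Jag1, at 153.3 CPM in IMP1 KO against 29.16 CPM in IMP1 WT cells, and the target gene Hey2. Hey2 was at 10.14 CPM in IMP1 KO against 1.424 CPM in IMP1 WT cells and reached 10 CPM through the IMP1 KO library alone. In IMP2 KO cells 1 of 10 Notch genes was higher and 1 lower, with Hes1, a target gene, at 17.47 CPM in IMP2 KO against 53.02 CPM in IMP2 WT cells. In the PDGF list 0 of 4 were higher and 2 lower in IMP1 KO cells, the ligands Pdgfc and Pdgfd. In IMP2 KO cells 1 of 4 was higher and 0 lower: the other PDGF receptor, Pdgfra, was at 309.4 CPM in IMP2 KO against 83.44 CPM in IMP2 WT cells, so both receptor genes were on the higher side there. Of 5 genes of calcium handling in each pair, 3 were higher and 0 lower in IMP1 KO cells, and 0 were higher and 1 lower in IMP2 KO cells. That 1 was the calcium channel Cacna1c, at 67.46 CPM in IMP1 KO against 25.7 CPM in IMP1 WT cells and at 6.658 CPM in IMP2 KO against 29.18 CPM in IMP2 WT cells.

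Markers of other cell types also differed between the total RNA libraries. Of 8 macrophage markers 6 had at least 10 CPM in IMP2 KO cells and 1 in IMP2 WT cells. All 6 were higher by at least 2-fold in IMP2 KO cells, but those that passed through that library alone had to be higher there. The 8 markers summed to 288 CPM in IMP2 KO against 35.3 CPM in IMP2 WT cells. Their sum was 14 CPM in IMP1 KO, where Ptprc, Adgre1, Aif1 and Itgam had 0 counts, against 26.5 CPM in IMP1 WT cells. Skeletal muscle markers, 11 genes, summed to 114 CPM in IMP1 KO against 323 CPM in IMP1 WT cells and to 5.5 CPM in IMP2 KO against 104 CPM in IMP2 WT cells. Skeletal alpha-actin, Acta1, made up most of it, at 111.1 CPM in IMP1 KO against 322.4 CPM in IMP1 WT cells. Acta1 was at 3.543 CPM in IMP2 KO against 103.1 CPM in IMP2 WT cells. There it reached 10 CPM through the WT library alone, so it had to be lower in IMP2 KO cells. Endothelial markers, 10 genes, summed to 113 CPM in IMP1 KO against 43.2 CPM in IMP1 WT cells, most of it the receptor gene Flt1 (104.4 and 29.09 CPM in IMP1 KO and IMP1 WT cells), and Pecam1, Cdh5, Tie1, Cldn5 and Esam had 0 counts in IMP1 KO cells. Their sum was 19 CPM in IMP2 KO, where Cdh5, Tie1, Emcn and Cldn5 had 0 counts, against 45.2 CPM in IMP2 WT cells. The part of other cells in the members' differences was not tested.

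In the IP libraries the question was which of these messages came down with IMP1 or IMP2 more than with IgG, and 8 of the 10 members could be tested. Rgs5 had 6 counts and Kcnmb1 10 counts over all 9 IP libraries, at most 2 in any library, and neither passed the filter on low counts (0.565 CPM in 3 libraries). Myh11 passed through the IgG IP libraries alone, at 3 to 12 counts a library, so its values had to be higher there, and it is given without a test against IgG IP and left out of those counts. Tests were edgeR's quasi-likelihood fit of all 14076 genes with Benjamini-Hochberg adjustment over all of them. Both proteins were compared with the same IgG libraries. Of the other 7 members, 4 were higher in IMP1 IP, where 31.7% of all genes were higher, and 1 lower, where 31.9% were lower. In IMP2 IP 2 of the 7 were higher, against 40.3% of all genes, and 4 lower, against 37.3%. Between the proteins, 5 of 8 were higher in IMP1 IP, against 34.1% of all genes, and 3 lower, against 37.3%. The division of all genes depended on the scaling: the median log2 fold change shifted with upper quartile scaling by -0.17 for IMP1 IP and by -0.18 for IMP2 IP against IgG IP, and with total count scaling by -0.15 for IMP1 IP, by 0.17 for IMP2 IP and by -0.33 for IMP1 IP against IMP2 IP. Of the genes called, those higher in IMP1 IP than in IgG IP were 49.81% as reported, 31.6% with upper quartile and 33.33% with total count scaling. For IMP2 IP against IgG IP they were 51.93% as reported, 39.88% with upper quartile and 62.24% with total count scaling, and for IMP1 IP against IMP2 IP 47.75% as reported and 27.82% with total count scaling. Since most genes passed the threshold in each comparison, nothing is read from these counts of members.

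Cspg4 was at 707, 706 and 715 CPM in IMP1 IP, at 373, 338 and 368 CPM in IMP2 IP, and at 477, 490 and 463 CPM in IgG IP. All IMP1 IP libraries lay above all IgG IP libraries, and all IMP2 IP libraries lay below them. The log2 fold change was 0.57 for IMP1 IP against IgG IP (SE 0.0367, adjusted p = 7.83e-12), -0.41 for IMP2 IP against IgG IP (SE 0.037, adjusted p = 1.58e-09) and 0.98 for IMP1 IP against IMP2 IP (SE 0.0366, adjusted p = 2.05e-16). Pdgfrb was at 376, 406 and 407 CPM in IMP1 IP, at 281, 272 and 287 CPM in IMP2 IP, and at 298.3, 298.3 and 296 CPM in IgG IP. It was higher in IMP1 IP than in IgG IP by 0.41 on the log2 scale (SE 0.0364, adjusted p = 1.56e-09) and higher in IMP1 IP than in IMP2 IP by 0.50 (SE 0.0358, adjusted p = 2.29e-11), with no overlap. Its IMP2 IP libraries lay just below the IgG IP libraries, by -0.09 (SE 0.0364, adjusted p = 0.0355), a difference that turned to 0.087 with total count scaling. Pdgfra, the gene of the other PDGF receptor, gave log2 fold changes of 0.66 for IMP1 IP against IgG IP (SE 0.0334, adjusted p = 1.49e-13) and -0.33 for IMP2 IP against IgG IP (SE 0.0338, adjusted p = 1.2e-08).

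Notch3 was at 6.8, 7.83 and 6.68 CPM in IMP1 IP, at 4.77, 3.83 and 4.89 CPM in IMP2 IP, and at 6.19, 6.82 and 6.73 CPM in IgG IP. IMP1 IP and IgG IP overlapped (log2 difference 0.11, SE 0.125, adjusted p = 0.457), while IMP2 IP lay below both, by -0.55 against IgG IP (SE 0.13, adjusted p = 0.000599), and IMP1 IP lay above IMP2 IP by 0.66 (SE 0.123, adjusted p = 5.09e-05). Its ligand gene Jag1 was higher in IMP1 IP than in IgG IP by 0.50 (SE 0.0559, adjusted p = 7.55e-08) and came to -0.57 in IMP2 IP against IgG IP (SE 0.0589, adjusted p = 1.44e-08). Of 15 Notch genes tested, 7 were higher and 2 lower in IMP1 IP than in IgG IP, 5 higher and 6 lower in IMP2 IP than in IgG IP, and 8 higher and 3 lower in IMP1 IP than in IMP2 IP. Of all genes, 31.7% were higher and 31.9% lower in IMP1 IP than in IgG IP. The shares were 40.3% and 37.3% in IMP2 IP against IgG IP, and 34.1% and 37.3% in IMP1 IP against IMP2 IP. Nothing is read from these counts of Notch genes.

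Tagln and Cnn1 were the members recovered more with IMP2 than with either IgG or IMP1. Tagln was at 108, 106 and 100.1 CPM in IMP1 IP, at 189, 188 and 177 CPM in IMP2 IP, and at 89.2, 84.6 and 94.7 CPM in IgG IP. No IMP2 IP library overlapped with the others, and the log2 fold change was 1.04 for IMP2 IP against IgG IP (SE 0.0453, adjusted p = 7.09e-15) and -0.82 for IMP1 IP against IMP2 IP (SE 0.0437, adjusted p = 1.25e-13). IMP1 IP was above IgG IP by 0.22 (SE 0.0474, adjusted p = 0.000326), a call that was lost with upper quartile scaling (0.051 on the log2 scale, adjusted p = 0.356). Cnn1 was at 2.6, 2.65 and 2.84 CPM in IMP1 IP, at 5.06, 4.93 and 5.09 CPM in IMP2 IP, and at 2.73, 2.9 and 3.47 CPM in IgG IP. IMP1 IP overlapped with IgG IP (log2 fold change -0.17, SE 0.165, adjusted p = 0.402), and IMP2 IP was above both, by 0.72 against IgG IP (SE 0.14, adjusted p = 7.36e-05), with IMP1 IP against IMP2 IP at -0.90 (SE 0.136, adjusted p = 3.86e-06). Acta2 was at 376 ± 5.79 CPM in IMP1 IP, 832 ± 15.7 CPM in IMP2 IP and 363 ± 8.05 CPM in IgG IP (SD, n = 3 each). Its IMP2 IP libraries were above IgG IP (log2 fold change 1.2, SE 0.0319, adjusted p = 2.84e-18), while IMP1 IP differed from IgG IP by 0.05 (SE 0.0323, adjusted p = 0.161). Of 24 contractile genes tested, 5 were higher and 7 lower in IMP1 IP than in IgG IP (median -0.04, all genes -0.03), 13 higher and 7 lower in IMP2 IP than in IgG IP (median 0.27, all genes 0.04), and 8 higher and 12 lower in IMP1 IP than in IMP2 IP (median -0.48, all genes -0.01). Of these contractile genes, Pln, at 0.72 to 1.28 CPM in IgG IP, passed the count filter through IgG IP alone. Des, at 0.528 to 0.966 CPM in IMP2 IP, passed it through IMP2 IP alone. Each had to be higher in that group, and both are counted. The shares of all genes called are those given with the Notch genes, and nothing is read from these counts and medians either.

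The remaining contractile members gave smaller or less certain differences. Lmod1 was at 1.71, 1.71 and 1.3 CPM in IMP1 IP, at 3.41, 2.6 and 2.96 CPM in IMP2 IP, and at 3.17, 2.9 and 2.08 CPM in IgG IP. IMP1 IP was below the others, by -0.78 against IgG IP (SE 0.218, adjusted p = 0.00381) and -0.91 against IMP2 IP (SE 0.195, adjusted p = 0.000268), and IMP2 IP and IgG IP overlapped (0.13, SE 0.182, adjusted p = 0.514). Smtn was at 113, 114 and 121 CPM in IMP1 IP, at 100.1, 96.4 and 96.1 CPM in IMP2 IP, and at 105, 106 and 107 CPM in IgG IP. The groups did not overlap, with 0.13 for IMP1 IP against IgG IP (SE 0.0407, adjusted p = 0.00994), -0.12 for IMP2 IP against IgG IP (SE 0.0404, adjusted p = 0.00864) and 0.25 for IMP1 IP against IMP2 IP (SE 0.0394, adjusted p = 6.67e-06). All 3 differences of Smtn changed sign with total count scaling, to -0.027, 0.051 and -0.078, so no direction is given for it. Myh11 was at 0.355, 0.505 and 0.371 CPM in IMP1 IP, at 0.227, 0.132 and 0.205 CPM in IMP2 IP, and at 0.72, 1.02 and 0.763 CPM in IgG IP. Its IMP1 IP libraries lay above its IMP2 IP libraries by 1.11 (SE 0.452, adjusted p = 0.0389), a call that was lost with DESeq2 (adjusted p = 0.105).

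Several calls hung on single libraries. Myh11 in IMP1 IP against IMP2 IP lost its call without IMP1 IP replicate 2 (adjusted p = 0.143) or 3 (0.0507) and without IMP2 IP replicate 1 (0.0513), 2 (0.134) or 3 (0.0602). Smtn in IMP1 IP against IgG IP did so without IMP1 IP replicate 3 (0.0677), and in IMP2 IP against IgG IP without IgG IP replicate 3 (0.0522) or IMP2 IP replicate 3 (0.0569). Pdgfrb in IMP2 IP against IgG IP lost its call without any 1 of IgG IP replicates 1, 2 and 3, IMP1 IP replicates 1 and 2, or IMP2 IP replicates 1 and 2 (0.0598 to 0.236).

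**Figure D3:**
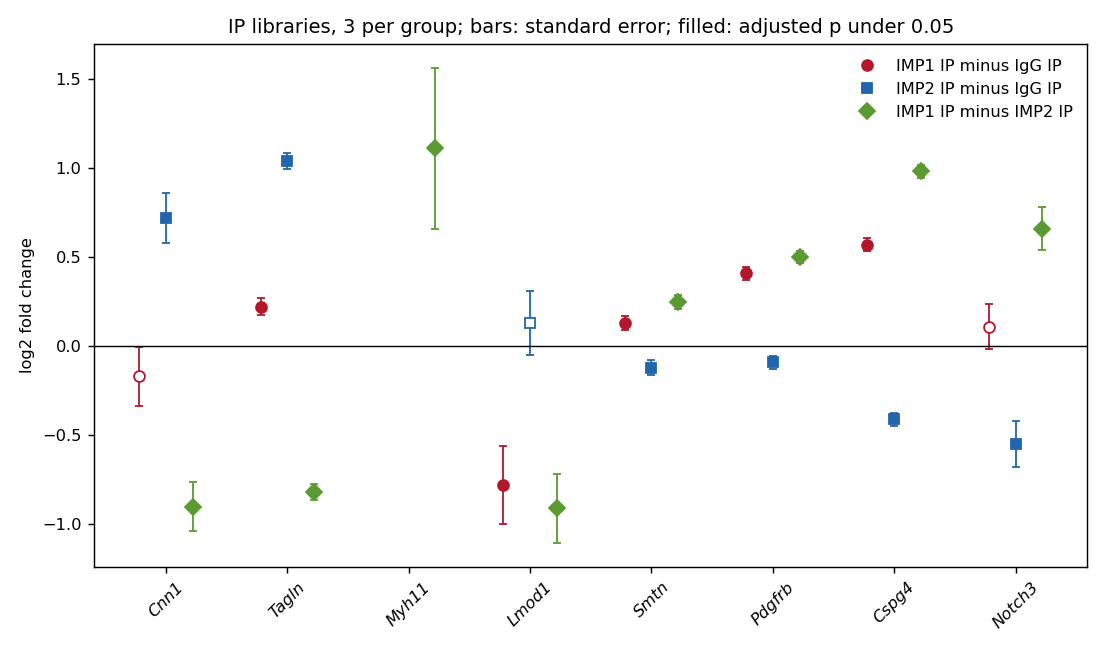
Log2 fold changes of the 8 members tested in the IP libraries (3 per group) with their standard errors, for IMP1 IP minus IgG IP, IMP2 IP minus IgG IP and IMP1 IP minus IMP2 IP. Filled symbols have an adjusted p under 0.05, and Myh11 is drawn for IMP1 IP minus IMP2 IP alone. Cspg4 is at 0.57 for IMP1 IP and -0.41 for IMP2 IP, and Tagln at 1.04 for IMP2 IP, both against IgG IP.

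Cnn1, Tagln, Myh11, Lmod1 and Notch3 were lower in the IP libraries than in WT total RNA, in IgG IP as well, while Smtn, Pdgfrb and Cspg4 were not. With all 13 libraries scaled together, Cnn1 averaged 3.03 ± 0.382 CPM (SD, n = 3) in IgG IP against 544 CPM over the 2 WT total RNA libraries, 180-fold lower. Myh11 was 104-fold lower in IgG IP, Lmod1 65.2-fold, Tagln 43.1-fold and Notch3 4.62-fold lower. By contrast Smtn was 1.31-fold, Pdgfrb 1.39-fold and Cspg4 2.53-fold higher in IgG IP than in WT total RNA. The same division was seen when the 2 WT total RNA libraries took the place of IgG IP in edgeR's fit. Rgs5, Kcnmb1 and Myh11 did not reach the count filter in IMP1 IP or IMP2 IP, so they had to be lower there and are left out of these counts. For IMP1 IP against WT total RNA, 3 of the other 7 members were higher, where 41.4% of all genes were higher, and 4 lower, where 44.7% were lower. For IMP2 IP against WT total RNA, 3 of the 7 were higher, where 39.5% of all genes were higher, and 4 lower, where 41.6% were lower. Cspg4 was 2.00 higher on the log2 scale in IMP1 IP than in WT total RNA (SE 0.064, adjusted p = 1.61e-17) and 0.98 higher in IMP2 IP (SE 0.0617, adjusted p = 3.39e-12), while Cnn1 came to -7.56 in IMP1 IP (SE 0.087, adjusted p = 1.25e-23) and -6.71 in IMP2 IP (SE 0.0776, adjusted p = 1.4e-23). Rgs5 and Kcnmb1, at 0 to 2 counts in each IP library against 492 and 510 counts of Rgs5 and 162 and 196 counts of Kcnmb1 in IMP1 WT and IMP2 WT total RNA, are given by their counts alone. IP and total RNA libraries differ in preparation and possibly in the cells used, and these cannot be told apart here. For Tagln and Cnn1 in IMP2 IP the direction thus depends on the background, above IgG IP and below total RNA.

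**Figure D4:**
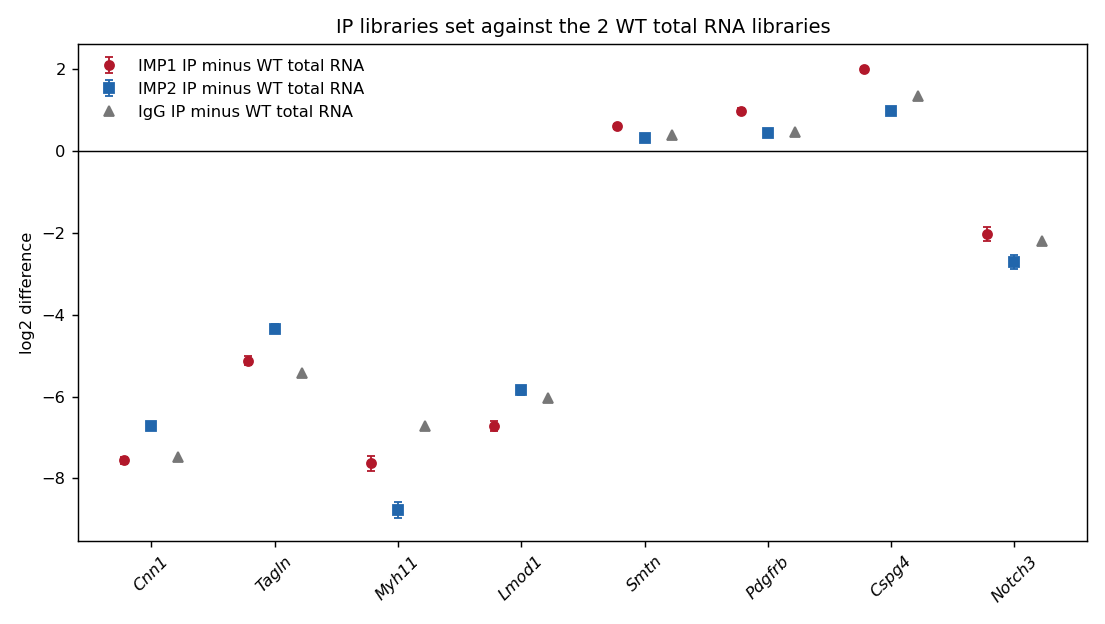
Log2 difference between IP libraries and the 2 WT total RNA libraries for the 8 members tested in the IP libraries. IMP1 IP and IMP2 IP values are from edgeR's fit with standard errors, and IgG IP values are ratios of mean CPM with no error drawn. Cnn1, Tagln, Myh11, Lmod1 and Notch3 lie below 0 for all 3 IP groups, and Smtn, Pdgfrb and Cspg4 above 0. Myh11 did not reach the count filter in IMP1 IP or IMP2 IP, so its values for these groups had to be below 0.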

How the data were processed

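Whole-number read counts per Ensembl gene were deposited, 1 file per library for 9 IP and 4 total RNA libraries of mouse embryonic fibroblasts, and the values show no normalization by the authors. STAR, HTSeq and the mouse build mm10 are named per the submitters' processing notes; versions, settings, annotation and strand use are not given in the sources used here. The 5 tally lines of each file were kept apart. They include reads outside annotated genes (4.43% to 25.2% of records) and reads not mapped uniquely (17.2% to 40.9%). The 10 members were matched by gene symbol from Ensembl IDs, and the members and all gene lists were chosen with earlier results of these data known.

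The 9 IP libraries, 11840189 to 21756430 gene counts each, entered 1 quasi-likelihood fit in edgeR 4.0.16 (R 4.3.3), with TMM scaling, edgeR's default expression filter and 2-sided tests, Benjamini-Hochberg adjusted, threshold 0.05. No covariate was used. Deviations of same-numbered libraries correlated at -0.0587 to 0.0733, and those of differently numbered libraries at -0.0515 to 0.0512. These values cannot settle whether the numbers mark shared cultures, which the labels do not state. No 2 replicates agreed within sampling noise (chi-square per degree of freedom 1.14 to 8.07). IMP2 IP replicate 1 gave 7.7 and 8.07 against the other IMP2 IP replicates, and all other pairs gave 1.14 to 2.75. The 4 total RNA libraries, 1 per genotype, gave CPM ratios with exact 95% counting intervals, and log2 ratios with a prior count of 2; reads are not independent molecules, so intervals and floors cover counting error only. A difference was counted at 2-fold among genes with at least 10 CPM in 1 library of the pair. The IP fit was tested on simulated counts for IMP1 IP against IgG IP, with the same spread set for all genes. The total RNA steps were not tested in this way.

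Named genes were all 10 members, the targeted genes and 7 partner genes set by name, and from each list the 2 highest and 2 lowest, of which those that bear on the members are printed. Alternatives were DESeq2 1.42.0, limma 3.58.1 voom, other scalings and filters, only the libraries compared, WT total RNA as background, a replicate block, each library left out in turn, and for total RNA other scalings, prior count, level and fold limits and, added after the data were seen, the other WT library.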

Additional observations from a re-analysis of the deposited data

Results flagged for a closer look

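For 4 members the knockouts differed from their WT libraries in opposite directions. Rgs5 was higher in IMP1 KO than in IMP1 WT cells and lower in IMP2 KO than in IMP2 WT cells, so its log2 ratios, 5.50 and -0.96, differed by 6.46. For Myh11 the ratios were 0.85 in IMP1 KO and -4.75 in IMP2 KO cells, which differed by 5.60. Lmod1, at 0.51 in IMP1 KO and -1.55 in IMP2 KO cells, differed by 2.06, and Notch3, at 2.36 in IMP1 KO and -0.20 in IMP2 KO cells, by 2.56. With 1 library per genotype the differences were not tested, and Notch3 was higher in IMP2 KO cells, at 0.61, when IMP1 WT cells were the comparison.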

How the results depend on the processing

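Of 545 alternative values for single members, 479 counted as unchanged. In the IPs these kept their direction and their side of the threshold. In total RNA they stayed within the counting interval of the reported ratio, which did not bar a crossing of the 2-fold limit. Of the rest, 27 lost the call, 1 gained it, 19 in the IPs changed sign, and 19 in total RNA moved beyond their counting interval. Among these, the sign changed for Cnn1 in IMP1 KO (0.105) and Notch3 in IMP2 KO cells (0.608) against the other WT library. A filter of 10 CPM in 3 libraries, which leaves fewer members, called 2 members for IMP1 IP against IgG IP, 4 for IMP2 IP against IgG IP and 4 for IMP1 IP against IMP2 IP, where 6, 7 and 8, Myh11 included, were called in the reported fit, and 7240 genes for IMP2 IP against IgG IP. With WT total RNA as background 10 members, among them the 3 with too few IP counts, and 13903 genes were called for IMP1 IP. Between IMP1 WT and IMP2 WT cells 1 member was past 1.5-fold. Smtn changed sign for IMP1 IP against IgG IP with upper quartile scaling (-0.044), total count scaling (-0.027) and the 10 CPM filter (-0.016), and with total count scaling for IMP2 IP against IgG IP (0.051) and IMP1 IP against IMP2 IP (-0.078). Pdgfrb did so for IMP2 IP against IgG IP with total count scaling (0.087) and with no filter (0.005). Notch3 in IMP1 IP against IgG IP, not past the threshold as reported, changed sign with upper quartile (-0.059) and total count scaling (-0.042), and Lmod1 in IMP2 IP against IgG IP with upper quartile scaling (-0.046) and without IgG IP replicate 3 (-0.030, with -0.030 to 0.277 as the range over libraries left out). Tagln in IMP1 IP against IgG IP lost its call under both scalings and the 10 CPM filter (adjusted p = 0.143 to 0.356). Set against WT total RNA, signs changed for Tagln (-5.117) and Notch3 (-2.017) in IMP1 IP and for Cnn1 (-6.711), Tagln (-4.340), Lmod1 (-5.851), Smtn (0.310), Pdgfrb (0.432) and Cspg4 (0.978) in IMP2 IP. The causes were not tested. With the replicate block 6, 7 and 8 members were called, as without it, and 9017, 10961 and 10067 genes. Rgs5, Kcnmb1 and Myh11 had 0 to 12 counts a library in the IPs. The IP libraries held 11840189 to 21756430 gene counts, against 11430002 to 17225308 in total RNA. The cause of the low counts was not tested.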
